A study of Mus musculus with 2 samples.

Results

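Foxp3 regulatory T cells are the CD4 lineage that restrains other T cells, and they are described here from 1 Glut5 KO library and 1 WT library of CD45+ brain tumour immune cells. A barcode was kept as a cell when it held at least 300 genes and under 10% mitochondrial unique molecular identifiers (UMIs, the tags that count captured transcripts). A kept barcode was counted as a regulatory T cell when it held at least 1 Foxp3 UMI and at least 1 UMI of Cd3e, Cd3d or Cd3g. It also had to hold at most 1 UMI of Cd8a and Cd8b1 together, and under 100 UMIs per 10000 of the phagocyte genes C1qa, C1qb, C1qc, Lyz2 and Apoe. This gave 177 members among 23585 kept barcodes, 132 of 12112 in the Glut5 KO library and 45 of 11473 in the WT library. The members were thus chosen by measured UMIs of Foxp3, the Cd3 genes, the Cd8 genes and the 5 phagocyte genes, and the values of these genes only describe the choice.

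Both libraries came from mice carrying CT-2A tumours, a mouse glioma cell line placed into the brain, and the tumour was taken 14 days later. The Glut5 KO mouse lacks Glut5 according to the sample labels, while the design text speaks of a knockdown. Glut5 is the fructose transporter encoded by Slc2a5. The tumours were dissociated, CD45+ cells were taken with magnetic beads, 16000 cells were loaded per library and RNA was captured with a 10x Genomics 5' kit. The labels name 1 mouse per genotype, and both libraries held cells with Xist and cells with Y-linked transcripts. Among the members, 28 had Xist alone and 48 Y-linked transcripts alone in the Glut5 KO library, against 3 and 18 in the WT library. The members compared between genotypes thus also differ in this mix. The libraries held 96851696 UMIs (Glut5 KO) and 116105873 UMIs (WT), and Slc2a5 had 1 UMI in the whole Glut5 KO library and 384 in the WT library. With 1 library per genotype no test of the genotypes was possible, genotype and library cannot be told apart, and every interval given is a 95% interval for counting error only.

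Foxp3 is the transcription factor that defines regulatory T cells. It works with Ikzf2 and Ikzf4, members of the Ikaros family of zinc finger factors. These cells consume IL-2 through the high-affinity receptor chain Il2ra, and they strip costimulatory ligands from antigen-presenting cells through Ctla4. In tumours they commonly take an effector form with costimulatory receptors of the TNF receptor family and with suppressive surface proteins such as the TGF-beta-binding protein encoded by Lrrc32.

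In the Glut5 KO library 320 kept barcodes held Foxp3, and 171 did so in the WT library. Of these, 67 and 60 had no Cd3 UMI, 54 and 29 had Cd3 but more than 1 Cd8 UMI, and a further 67 and 37 reached the phagocyte limit. The members held 56.4% of all Foxp3 UMIs in the Glut5 KO library and 31.5% in the WT library. Among phagocytes, which had no Cd3 UMI and should lack Foxp3, 52 of 7141 (0.728%) in the Glut5 KO library and 54 of 8147 (0.663%) in the WT library held a Foxp3 UMI, at median depths of 7307 and 9300 UMIs. Just outside the rule, 30 Foxp3 barcodes in the Glut5 KO library and 17 in the WT library had 100 to 200 phagocyte UMIs per 10000, the lowest at 102 and 104. Just inside it, 13 and 5 members had 50 to 100, the highest at 99.8 and 99.1. At the Cd8 limit, 15 Glut5 KO and 2 WT members held 1 Cd8 UMI, and 5 and 3 otherwise matching barcodes held 2. Of the 188 barcode sequences found in both libraries, 2 belonged to Glut5 KO members, 0 to WT members, and none was a member in both.

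The members were deeper than the T cells without Foxp3 that met the rest of the rule. They held a median of 10488 UMIs in the Glut5 KO library, between 546 and 48238, and 10125 in the WT library, between 590 and 44693. The T cells without Foxp3 numbered 592 in the Glut5 KO library and 276 in the WT library, with medians of 4298 and 5814 UMIs. Foxp3 itself was counted once in 37 of the 132 Glut5 KO members and in 18 of the 45 WT members. It reached 5 or more UMIs in 38 and 9 members, and the highest counts were 15 and 8.

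**Figure D1:**
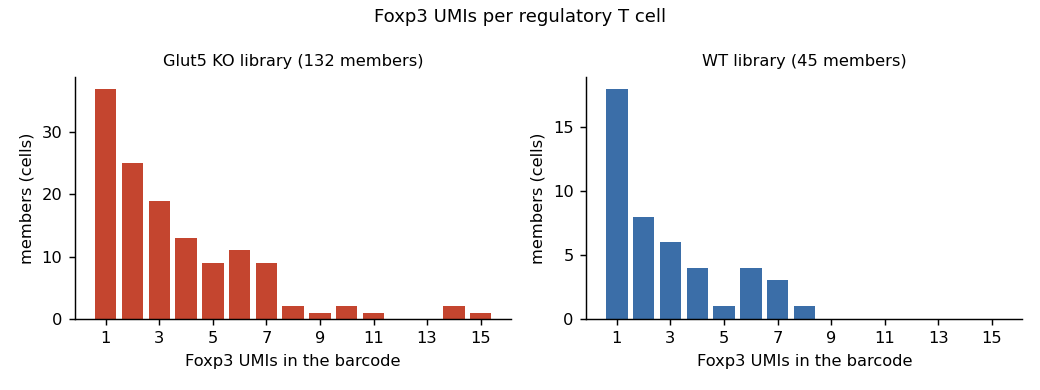
Number of members (cells, y axis) by the Foxp3 UMIs in the barcode (x axis), Glut5 KO library left and WT library right. Single-UMI members are the most frequent class in both, 37 of 132 and 18 of 45, and the tail reaches 15 UMIs in the Glut5 KO library and 8 in the WT library.

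Many members also carried transcripts of antigen-presenting cells. At least 100 UMIs per 10000 of the MHC class II genes H2-Aa, H2-Ab1, H2-Eb1 and their chaperone Cd74 stood in 51 Glut5 KO members and 17 WT members. At least 3 UMIs of the B and plasma cell genes Cd79a, Cd79b, Ms4a1, Jchain and Mzb1 stood in 17 Glut5 KO members and 0 WT members. At least 3 UMIs of the dendritic cell genes Flt3, Xcr1, Clec9a, Cd209a, Siglech and Fscn1 stood in 26 and 15. By any of these 3 criteria, 60 Glut5 KO members (45.5%) and 20 WT members (44.4%) were mixed, and the other 72 and 25 are called clear barcodes. Mixed barcodes were the deeper ones, with medians of 14490 UMIs (Glut5 KO) and 13109 (WT) against 6350 and 3866 in clear barcodes. The limits of 3 UMIs are not scaled to depth and deeper barcodes reach them more easily, so the definition itself favours this difference. Among T cells without Foxp3, 225 (38.0%) in the Glut5 KO library and 95 (34.4%) in the WT library were mixed. A mixed barcode can hold 2 cells, free RNA or a T cell that itself expresses these genes, and which of these applied was not tested. The criteria were set after the data were seen, and values in clear barcodes stand beside the main results. A doublet caller scored 3 Glut5 KO members (2.27%) and 1 WT member (2.22%) among the top 8% of its library. The shares of T cells without Foxp3 scored so were 5.07% and 5.80%.

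**Figure D2:**
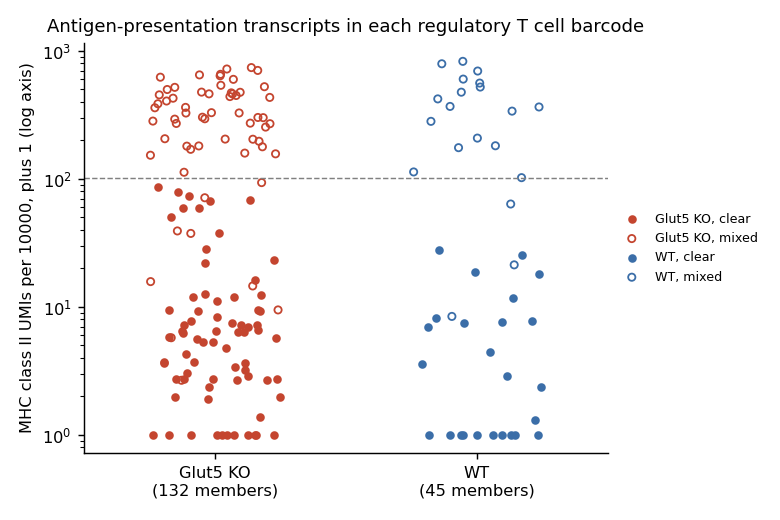
Each point is 1 member, with its summed UMIs of the 4 MHC class II transcripts named above per 10000 plus 1 (y axis, log scale), Glut5 KO left and WT right; open points are mixed barcodes and the dashed line is the limit of 100. Both libraries show an upper cloud above the limit, 51 of 132 Glut5 KO and 17 of 45 WT members, and a lower one with little or no MHC class II.

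Regulatory T cells made up a larger share of the Glut5 KO library than of the WT library. They were 1.09% (0.913 to 1.29) of kept barcodes in the Glut5 KO library and 0.392% (0.286 to 0.524) in the WT library, a ratio of 2.78 (1.97 to 3.99). T cells without Foxp3 were also more frequent in the Glut5 KO library, at 4.89% of kept barcodes against 2.41%, a ratio of 2.03 (1.76 to 2.35), and CD8 T cells without Foxp3 stood at 2.01% against 1.34%, a ratio of 1.49 (1.22 to 1.84). As a share of the T cells with at most 1 Cd8 UMI, the members were 18.2% (15.5 to 21.2) in the Glut5 KO library and 14.0% (10.4 to 18.3) in the WT library. The ratio of these shares was 1.30, and its interval of 0.921 to 1.87 included 1. With CD8 T cells in the denominator the shares were 13.7% and 9.47%, a ratio of 1.44 (1.02 to 2.07).

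The ratio of shares of all barcodes was nearly as large without mixed barcodes. Clear members were 0.594% of kept barcodes in the Glut5 KO library and 0.218% in the WT library, a ratio of 2.73 (1.71 to 4.49), and 16.4% and 12.1% of clear T cells, a ratio of 1.35 (0.847 to 2.22). Thinning every barcode to 1000 UMIs before the rule left 43 members in the Glut5 KO library and 12 in the WT library, which were 7.05% and 3.77% of the T cells, a ratio of 1.87 (0.968 to 3.89). A share of barcodes depends on which other cells were captured, and the CD45+ selection by beads stands before all of these shares. A regulatory T cell whose Foxp3 was not captured counts among the T cells without Foxp3, in these shares and in the gene comparisons. How many did so was not tested.

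The fixed markers matched the label. Ikzf2 had 540 CPM (counts per 1000000 UMIs of the summed group) in Glut5 KO regulatory T cells and 160 in T cells without Foxp3, and 481 CPM against 120 in the WT library. Ctla4 had 947 CPM against 363 in the Glut5 KO library and 733 against 213 in the WT library. Il2ra had 381 CPM against 86.2 in the Glut5 KO library and 463 against 62.5 in the WT library. All 3 of these markers were found together in 95 of 132 Glut5 KO members and 23 of 45 WT members, and none of them in 0 and 2. Cd4 was detected in 75 Glut5 KO members (56.8%) and 22 WT members (48.9%), without thinning. In clear barcodes thinned to 1000 UMIs, Cd4 was present in 10.1% of Glut5 KO members and 15.1% of T cells without Foxp3. The same shares in the WT library were 17.4% (4 of 23) and 10.3%. With cells thinned to 1000 UMIs, a Ctla4 UMI was present in 61.2% of 129 Glut5 KO members, 23.0% of 540 T cells without Foxp3 and 0.789% of 6461 phagocytes. In the WT library it was present in 46.5% of 43 members, 18.1% of 270 T cells without Foxp3 and 0.189% of 7941 phagocytes. The thinned shares for Il2ra were 27.1%, 7.04% and 0.526% in the Glut5 KO library and 25.6%, 4.44% and 0.176% in the WT library. Those for Ikzf2 were 45.0%, 12.4% and 1.10% in the Glut5 KO library and 18.6%, 12.2% and 0.453% in the WT library. In the unthinned barcodes Ctla4 was found in 93.2% of Glut5 KO and 88.9% of WT members, Il2ra in 81.1% and 68.9%, and Ikzf2 in 90.2% and 80.0%.

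The 3 defining genes whose promoters are in the RefSeq table (build GRCm38.p6, 250 bases before to 50 after the annotated start, strand as transcribed) are shown to place the markers in the genome. Capitals mark the core of the binding site of NFAT, a factor switched on by the T cell receptor, searched as GGAAA on both strands (TTTCC on the reverse). This short word is in 61.3% of the table's 32851 promoters, and the forkhead word TGTTTAC, also read on both strands and in 3.65% of them, is in none of these windows. The matches are descriptions of letters, and no binding was measured.
Foxp3, chrX:7579426-7579725, plus strand, 2 matches: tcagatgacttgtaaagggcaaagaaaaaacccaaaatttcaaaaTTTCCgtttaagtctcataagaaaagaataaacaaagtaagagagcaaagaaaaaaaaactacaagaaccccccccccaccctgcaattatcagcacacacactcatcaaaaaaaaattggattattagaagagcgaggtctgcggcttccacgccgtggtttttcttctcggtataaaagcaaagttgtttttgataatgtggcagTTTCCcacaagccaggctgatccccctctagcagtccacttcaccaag
Ctla4, chr1:60908775-60909074, plus strand, 1 match: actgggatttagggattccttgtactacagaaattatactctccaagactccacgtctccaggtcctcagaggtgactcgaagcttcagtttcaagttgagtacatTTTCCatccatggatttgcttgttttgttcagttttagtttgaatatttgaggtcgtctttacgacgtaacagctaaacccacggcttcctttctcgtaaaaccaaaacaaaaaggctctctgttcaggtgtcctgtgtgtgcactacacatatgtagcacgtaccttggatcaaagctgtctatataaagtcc
Il2ra, chr2:11642542-11642841, plus strand, 1 match: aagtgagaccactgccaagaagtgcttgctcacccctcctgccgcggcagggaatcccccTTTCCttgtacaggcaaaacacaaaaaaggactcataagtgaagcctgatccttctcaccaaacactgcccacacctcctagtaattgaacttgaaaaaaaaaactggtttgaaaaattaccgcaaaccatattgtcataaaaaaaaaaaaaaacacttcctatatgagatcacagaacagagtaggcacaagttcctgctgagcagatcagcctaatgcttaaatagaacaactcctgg
The table holds a second Foxp3 window downstream, at chrX:7580233-7580532, which has 1 match.

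**Figure D3:**
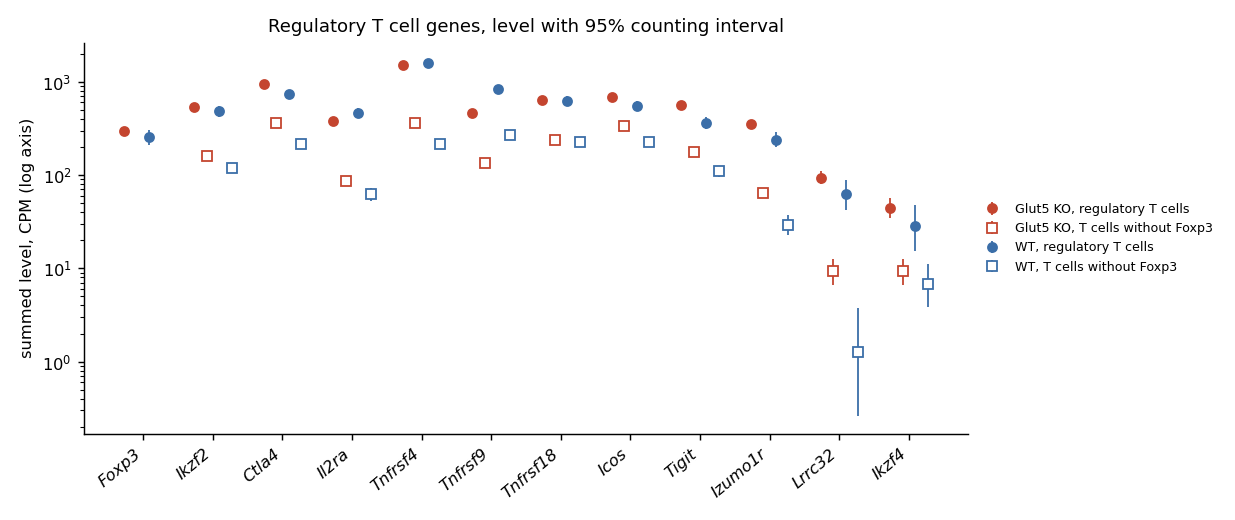
Summed level in CPM (y axis, log scale) with 95% Poisson intervals for 12 regulatory T cell genes (x axis); filled circles are regulatory T cells, open squares T cells without Foxp3, Glut5 KO in red and WT in blue. Each filled circle lies above its own library's open square, and Foxp3 has no square because the rule sets it to 0 there.

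The regulatory T cells were next compared with T cells without Foxp3 within each library. Of 8958 genes with at least 20 UMIs in both libraries, 95 were at least 2-fold higher in both (1.06%) and 201 at least 2-fold lower in both (2.24%). These groups were separated by a count of Foxp3 and differ in depth, so the values describe the members and carry no test. In clear barcodes 83 of 6615 genes were higher (1.25%) and 208 lower (3.14%).

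Among the transcription factors of regulatory T cell identity, 3 of 15 measured members were higher in both libraries, and 1 of these is Foxp3 itself. Ikzf4 had a log2 ratio over T cells without Foxp3 of 2.26 in the Glut5 KO library and 2.06 in the WT library, and Ikzf2 of 1.76 (1.61 to 1.91) and 2.0 (1.75 to 2.25). Satb1, a chromatin organiser of resting T cells, was lower, at -1.38 and -1.53, and no identity factor was lower in both libraries with a Cd4 UMI required or with no limit on phagocyte UMIs. Bach2, which holds T cells in a resting state, stood at -1.22 and -0.87, and Foxp1 at -0.85 and -0.53.

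Suppressive and inhibitory molecules were higher in 4 of 17 measured members and lower in none, and in clear barcodes 2 of 14 were higher, Ctla4 and Tigit. Lrrc32 had 93.6 CPM in Glut5 KO regulatory T cells against 9.27 in T cells without Foxp3, and 62.4 CPM against 1.28 in the WT library. Its log2 ratios were 3.32 (2.81 to 3.89) and 5.41 (3.93 to 7.97), and it led the ordering of all genes by the weaker library. Itgb8, an integrin chain that activates TGF-beta, had log2 ratios of 1.58 and 2.81, Tigit 1.70 and 1.71, and Ctla4 1.38 and 1.78. At the low end stood Havcr2, at -0.66 and -0.62, Cd200 at -0.87 and -0.05, and Fgl2 at 0.01 and -0.39. Lrrc32 was not among the 14 members measured in clear barcodes, where its WT counts were too low. These were 15 UMIs in clear WT members and 1 in clear WT T cells without Foxp3. Its clear levels were 130 CPM against 18.3 in the Glut5 KO library and 79.4 CPM against 0.989 in the WT library.

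Receptors for cytokines were mostly alike in both groups, and Il2ra was the only 1 of 16 measured members past 2-fold in both libraries, with log2 ratios of 2.15 (1.95 to 2.34) in the Glut5 KO library and 2.89 (2.58 to 3.20) in the WT library. With ratios centred on the median gene 2 members were past it. Il1rl1, the receptor of IL-33, had 0.97 and 2.47, on 22 and 13 member UMIs. Il7r, which regulatory T cells are known to carry at low levels, stood at -0.63 and -0.62, and Tgfbr2 at -0.97 and -0.76.

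Costimulatory receptors were the group with the largest share of higher genes named so far, 5 of 14 measured members, with none lower. Tnfrsf4, which encodes OX40, had 1505 CPM in Glut5 KO regulatory T cells against 357 in T cells without Foxp3 and 1577 CPM against 217 in the WT library, for log2 ratios of 2.08 (1.98 to 2.17) and 2.86 (2.70 to 3.02). Tnfrsf9, which encodes 4-1BB, had log2 ratios of 1.81 and 1.65, Tnfrsf18, which encodes GITR, 1.42 and 1.49, and Icos 1.02 and 1.30. In clear barcodes 3 of 14 were past 2-fold in both libraries, and Icos then stood at 0.81 and 1.04. With a Cd4 UMI required 3 were higher as well. The activation antigen Cd69 was split, at -1.01 in the Glut5 KO library and 0.27 in the WT library.

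Effector regulatory T cell genes were higher in 6 of 23 measured members and lower in none, with 4 of 22 higher in clear barcodes and 3 higher with a Cd4 UMI required. Izumo1r, the folate receptor 4 gene, had 352 CPM against 63.9 in the Glut5 KO library and 240 CPM against 29.3 in the WT library, for log2 ratios of 2.46 (2.25 to 2.68) and 3.03 (2.59 to 3.48). Klrg1, a receptor of terminally differentiated effector cells, had 3.44 and 1.52. Areg, the tissue repair growth factor amphiregulin, had 1.44 and 3.40, and the transcription factor Maf 1.31 and 2.01. At the low end stood Socs3, a brake on cytokine receptor signalling, at -0.65 and -0.71, and the transcription factor Bhlhe40 at -0.87 and -0.22. No homing or chemokine receptor passed 2-fold in both libraries among 19 measured. Ccr8, a receptor typical of tumour regulatory T cells, had 0.91 and 1.97, and the integrin chain Itgb1 stood at -1.42 and -0.88.

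The genes of naive and of conventional effector T cells were the low groups. In the naive and resting list 6 of 14 measured members were lower and none higher, with median log2 ratios of -1.14 in the Glut5 KO library and -1.28 in the WT library, beside medians of -0.04 and 0.03 over all measured genes. The number lower was 1 with a Cd4 UMI required and 2 with no limit on phagocyte UMIs or in cells with Y-linked transcripts alone. Tcf7, a factor of naive and memory T cells, had 17.0 CPM in Glut5 KO regulatory T cells against 83.5 in T cells without Foxp3, and 24.2 CPM against 83.8 in the WT library. Nsg2 stood at -4.25 and -1.70 and Igfbp4 at -2.04 and -2.05. In the conventional effector list 12 of 21 measured members were lower and none higher, with medians of -1.44 and -2.02. Ifng had 13.2 CPM against 155 in the Glut5 KO library and 42.3 CPM against 426 in the WT library. Of the 21 WT member UMIs, 16 came from 1 barcode. In thinned clear barcodes, Ifng was found in 1 of 69 Glut5 KO members and in 7.38% of T cells without Foxp3. In the WT library it was found in 1 of 23 clear members and in 4 of 175 clear T cells without Foxp3. Before thinning, clear WT T cells without Foxp3 held 888 Ifng UMIs. The lower WT level was thus not seen in the share of clear cells with Ifng. Csf2, the gene of the cytokine GM-CSF, had 1 UMI in Glut5 KO members, for a log2 ratio of -5.55 (-11.44 to -3.63), and 0 in WT members, at least 3.17-fold lower than in T cells without Foxp3. Xcl1 stood at -2.29 and -4.77. Gzmb, the cytotoxic granzyme B gene, was at the other end of that list, at 1.18 and 0.26. In clear barcodes the same 2 lists had 5 of 13 and 12 of 20 measured members lower and none higher.

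**Figure D4:**
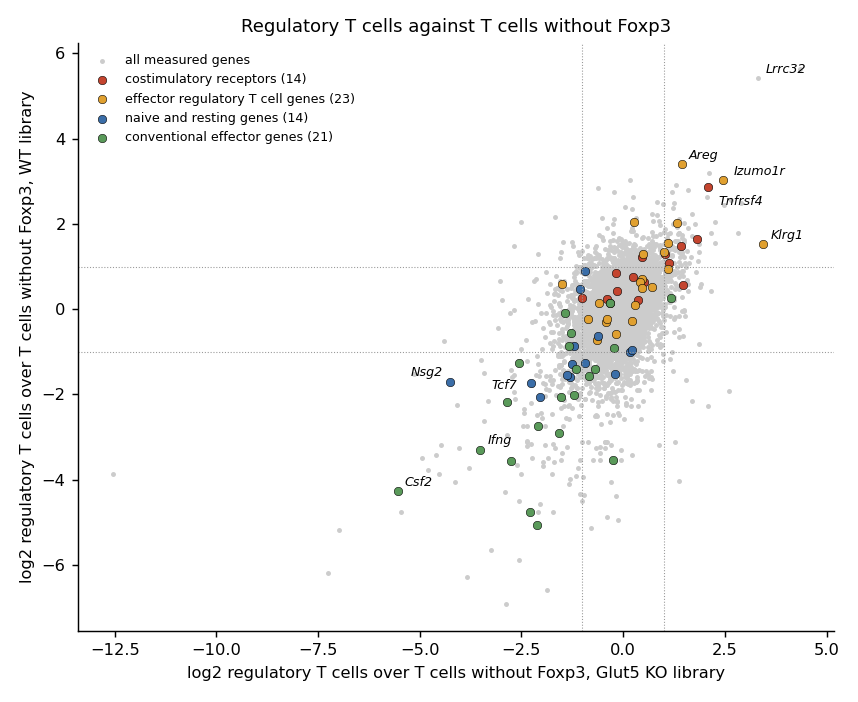
Log2 ratio of regulatory T cells over T cells without Foxp3 for each measured gene other than Foxp3, Glut5 KO library on the x axis and WT library on the y axis, with dotted lines at 2-fold. Costimulatory receptors (red) and effector genes (orange) reach the upper right, while naive (blue) and conventional effector genes (green) spread to the lower left, with Csf2 at -5.55 and -4.26, where 0.5 added to each count sets the WT position of a gene with 0 UMIs.

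Over all genes, the 15 highest by the weaker library held receptors and transcription factors already named, Lrrc32, Izumo1r, Il2ra, Tnfrsf4, Ikzf4, Ikzf2, Tigit and Tnfrsf9, and 7 further genes. Of the further genes, Rapsn, known as a scaffold of the muscle synapse, had log2 ratios of 2.89 and 2.50 on 73 and 18 member UMIs. Rln3, the gene of the peptide relaxin 3, had 2.49 and 2.44, and Sv2c, a synaptic vesicle protein gene, 2.05 and 2.63. Hist1h2bj, a histone gene, had 2.64 and 2.55, Dnph1, a nucleotide hydrolase gene, 2.10 and 3.20, Matk, a kinase that restrains Src kinases, 2.17 and 1.79, and Ephx1, an epoxide hydrolase gene, 1.69 and 2.24. In clear barcodes these 7 log2 ratios lay between 1.5 and 3.8.

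Among the 12 lowest genes, Klra4 and Klra1, receptors of the Ly49 family of natural killer cells, stood with cytotoxic and gamma-delta T cell genes. Klra4 had 0 UMIs in the members of both libraries and was at least 21.1-fold lower in the Glut5 KO library and at least 6.05-fold lower in the WT library. Nmnat2 and Spry2 also had 0 member UMIs, with bounds of 2.85-fold and 5.05-fold in the Glut5 KO library and 2.75-fold and 1.83-fold in the WT library. Tcrg-C2, a gamma chain constant gene, had 1 and 0 member UMIs. Gzmc and Gzma, granzyme genes, stood at -2.89 and -6.92 and at -2.76 and -3.57. In Glut5 KO members 72 of 83 Gzmc UMIs were in 1 barcode, and in WT members 38 of 40 Gzma UMIs and all 23 Ccl1 UMIs were each in 1. Nrgn, a calmodulin-binding protein gene, and Ifitm10 stood at -3.42 and -2.63 and at -2.60 and -3.66. The gamma-delta genes Trdc, Tcrg-C1 and Tcrg-C2 summed to 12.6 CPM in Glut5 KO members and 77.1 in T cells without Foxp3, and to 4.03 and 47.2 in the WT library. The 4 natural killer genes Ncr1, Klrb1c, Eomes and Prf1 summed to 49.6 CPM against 183 in the Glut5 KO library and to 90.6 against 247 in the WT library. CD8 T cells without Foxp3 also held these transcripts. The gamma-delta genes summed there to 52.7 CPM in the Glut5 KO library and 35.7 in the WT library, and the natural killer genes to 123 and 176. The cells of origin of these transcripts and their part in the low genes were not tested.

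Cell cycle genes had positive medians in the members, and how many passed 2-fold depended on which barcodes were compared. Of 35 measured cell cycle genes 8 were at least 2-fold higher in both libraries and none lower, with medians of 0.78 in the Glut5 KO library and 0.74 in the WT library. The mitotic cyclin gene Ccnb1 had log2 ratios of 1.30 and 1.60, Ccna2 1.26 and 1.44, and Ube2c, of the ubiquitin system that ends mitosis, 1.02 and 1.81. Mki67 or Top2a was detected in 53 Glut5 KO members (40.2%) and 13 WT members (28.9%). With cells thinned to 1000 UMIs, Mki67 was found in 13.2% of Glut5 KO members and 4.81% of T cells without Foxp3, and in 6.98% of WT members and 3.70% of T cells without Foxp3. In clear barcodes the thinned Mki67 share was 17.4% in Glut5 KO members and 3.69% in T cells without Foxp3, and 4.35% in WT members (1 of 23) and 5.14% in T cells without Foxp3. The list medians in clear barcodes were 0.77 and 0.60, with 5 of 35 genes past 2-fold in both libraries. The number was 0 with a Cd4 UMI required, 0 with CD8 cells among the T cells without Foxp3, and 1 with no limit on phagocyte UMIs or in cells with Y-linked transcripts alone.

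Glycolysis genes were slightly higher as a list, with medians of 0.31 and 0.30, and none of 18 measured members passed 2-fold in both libraries. Ldha, lactate dehydrogenase A, had 1484 CPM against 920 in the Glut5 KO library and 1546 CPM against 1033 in the WT library, and Slc16a3, a lactate exporter, had log2 ratios of 0.86 and 0.99. In clear barcodes the medians were 0.62 and 0.65, and 1 of 16 passed 2-fold, Slc16a3, at 1.76 and 1.49. Of the fructose and polyol list, 6 of 16 genes had enough UMIs and none passed 2-fold. Khk, the ketohexokinase that starts fructose breakdown, stood at -0.08 and -0.72. Slc2a5 itself had 0 UMIs in all 132 Glut5 KO and all 45 WT members, where 3 counts would be 1.89 CPM and 6.04 CPM. Its level in wild-type regulatory T cells was therefore below what these cells could show, and the deletion cannot be checked in them.

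The members were then compared between Glut5 KO and WT. Of 8204 genes with at least 20 UMIs over both, 448 were at least 2-fold higher in the Glut5 KO library (5.46%) and 245 at least 2-fold lower (2.99%). In clear barcodes the shares were 5.82% higher (309 of 5305 genes) and 4.22% lower (224). These shares come from 132 and 45 cells of 1 library each, and a few barcodes can decide a gene. In T cells without Foxp3, 4.55% of 10740 genes were at least 2-fold higher in the Glut5 KO library and 1.27% lower.

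The summed levels of the 4 markers stayed within 2-fold between the genotypes. Foxp3 had 295 CPM in Glut5 KO members and 254 in WT members, a log2 ratio of 0.21 (-0.07 to 0.51). Ikzf2 had a log2 ratio of 0.17 (-0.04 to 0.38), Ctla4 0.37 (0.20 to 0.54) and Il2ra -0.28 (-0.50 to -0.05). When each cell counted equally, Il2ra stood at 0.45. The share of members with an Ikzf2 UMI in cells thinned to 1000 UMIs was 45.0% in the Glut5 KO library (58 of 129) and 18.6% in the WT library (8 of 43), a ratio of 2.42 (1.15 to 5.86), which was 1.81 (0.798 to 4.80) in clear barcodes and 1.13 (0.770 to 1.68) without thinning. None of 15 measured identity factors and none of 16 cytokine receptors passed 2-fold. Il2rb, the signalling chain shared by the IL-2 and IL-15 receptors, had 0.70, and in clear barcodes 0.78.

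Suppressive and inhibitory molecules had 1 of 18 measured members at least 2-fold higher in Glut5 KO members and 2 lower, with a median of 0.28, and the same list in T cells without Foxp3 had 6 of 18 higher, none lower and a median of 0.69. In clear members 4 of 17 were higher and 1 lower. Lag3, an inhibitory receptor that binds MHC class II, had 172 CPM in Glut5 KO members and 58.4 in WT members, a log2 ratio of 1.54 (1.01 to 2.17), and 1.34 in clear barcodes. Tigit had 569 CPM and 358 CPM, a ratio of 0.66 (0.43 to 0.91), and Nt5e, the adenosine-producing ectonucleotidase CD73, 0.89 (0.32 to 1.56). In T cells without Foxp3 Lag3 stood at 1.76 and Tigit at 0.68, close to their values in the members. Adora2a, an adenosine receptor, was lower at -1.06 and Cd200r1 at -1.05, while Nrp1 stood at -0.97.

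Of 23 measured effector regulatory T cell genes 1 was at least 2-fold higher in Glut5 KO members and none lower, and in clear members 3 of 22 were higher, S100a4, S100a6 and Lgals3, and 1 was lower, Irf4. The gene higher in all members was the amphiregulin gene Areg, which had 240 CPM in Glut5 KO members and 109 in WT members, a log2 ratio of 1.13 (0.73 to 1.58), beside 3.09 (2.52 to 3.78) in T cells without Foxp3. S100a6, a calcium-binding protein of effector and memory T cells, had 0.77 (0.61 to 0.94) in all members and 1.37 (1.08 to 1.69) in clear barcodes, beside 0.27 in T cells without Foxp3. In the homing list 2 of 19 genes were higher and 1, Ccr7, was lower, with a median of 0.15. In clear members 4 of 18 were higher, Ccr4, Ccr8, Cxcr4 and S1pr4, and none lower, with a median of 0.69. S1pr4 and S1pr1, receptors for the lipid that draws T cells out of tissue, had log2 ratios of 1.69 and 1.15, on 77 and 60 Glut5 KO UMIs and 7 and 8 WT UMIs. In the conventional effector list 4 of 18 measured members were higher and 2 lower, with a median of 0.08, and in clear members 5 of 15 were higher and 4 lower, with a median of 0.62. Xcl1 had 2.10 (0.94 to 3.89) and Ccl4 1.37, while Ifng stood at -1.68, with the concentration in 1 WT barcode given above. Gzmk had 20 UMIs in Glut5 KO members and 0 in WT members.

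Among the type I interferon response genes the median was 0.20 in the members and 0.14 in T cells without Foxp3, and 1 of 36 measured genes passed 2-fold, Ifi44, at 1.86 on 52 Glut5 KO and 4 WT UMIs. Ifi27l2a had 7311 CPM in Glut5 KO members and 3916 in WT members, a log2 ratio of 0.90 (0.83 to 0.97), and 0.73 (0.68 to 0.78) in T cells without Foxp3. Irf7, the factor that amplifies type I interferon, had 883 CPM and 465 CPM, a ratio of 0.92 (0.72 to 1.13), beside 0.11 (0.03 to 0.20) in T cells without Foxp3 and 0.73 in phagocytes. Interferon-gamma-induced genes had a median of -0.14 with none of 24 past 2-fold.

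Of 15 measured T cell receptor activation genes, 3 were at least 2-fold lower in Glut5 KO members and none was higher. The list had a median of -0.33, while the same list in T cells without Foxp3 had a median of 0.27 with 2 of 16 higher and none lower. In clear members 4 of 14 were lower and none higher, with a median of -0.24. Nfkbia, the inhibitor of NF-kappaB that this factor itself induces, had 734 CPM in Glut5 KO members and 1677 in WT members, a log2 ratio of -1.19 (-1.32 to -1.06). With no limit on phagocyte UMIs it stood at -0.54 (-0.64 to -0.44), short of 2-fold. It was found in 119 Glut5 KO and 38 WT members, and the fullest barcode held 85 of 1168 and 116 of 833 UMIs. In T cells without Foxp3 Nfkbia had 827 CPM in the Glut5 KO library and 625 in the WT library, a ratio of 0.40 (0.32 to 0.49). Egr1, an immediate-early factor, had -1.03 (-1.48 to -0.57) in the members and 0.81 (0.58 to 1.05) in T cells without Foxp3, and Cd69 -1.02 (-1.41 to -0.62) and 0.26 (0.08 to 0.45). Irf4, a factor that effector regulatory T cells require, had -0.67 (-1.18 to -0.13) and 1.10 (0.67 to 1.57). Tnfrsf9 was lower in both populations, at -0.83 (-1.01 to -0.66) in the members and -0.99 in T cells without Foxp3.

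These differences stood in clear barcodes too, where Nfkbia had -1.10 (-1.30 to -0.90), Egr1 -1.85, Cd69 -1.61 and Tnfrsf9 -0.52. Nfkbiz, another gene induced by NF-kappaB, had -1.83 (-2.31 to -1.36) there. The clear WT side is 25 barcodes with 188921 UMIs, and its deepest barcodes held 33711, 30817, 23760 and 21108 of them. A few cells therefore weigh heavily in these clear ratios. Several of the activation genes named above are also raised by tissue dissociation. The dissociation and immediate-early list had a median of -0.29 in the members with 2 of 24 lower and none higher, and 0.10 in T cells without Foxp3. In clear members 4 of 22 were lower and none higher, with a median of -0.28, and the list's part in the result was not tested. Thinned to 1000 UMIs, Nfkbia was found in 43.4% of Glut5 KO members and 69.8% of WT members.

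**Figure D5:**
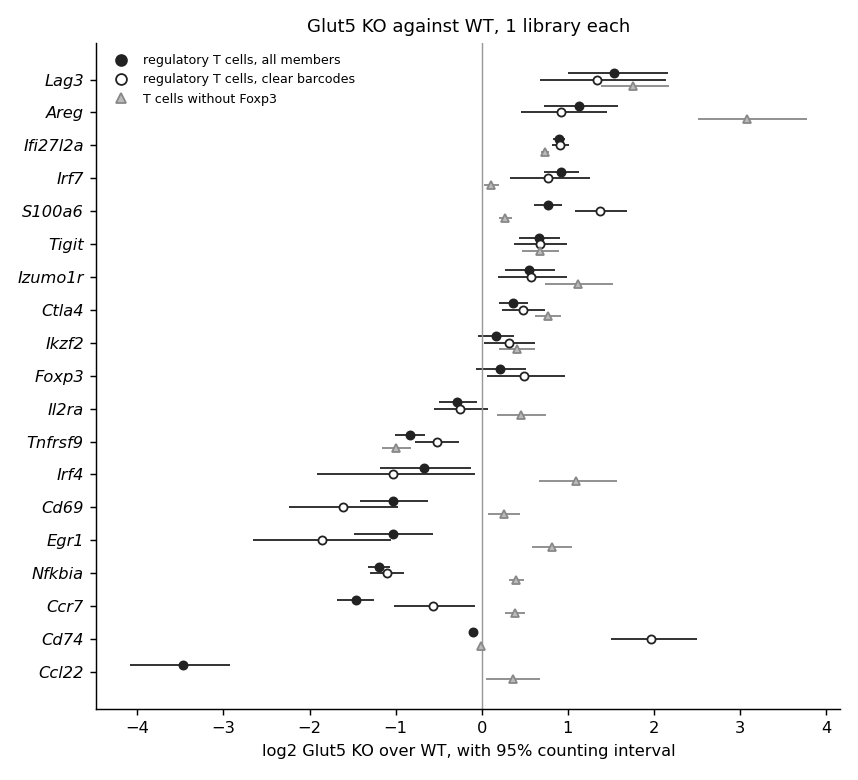
Log2 ratio of Glut5 KO over WT (x axis) with 95% counting intervals for the 4 markers, Cd74 and 14 further named genes (y axis); filled circles are all members, open circles clear barcodes, grey triangles T cells without Foxp3. Nfkbia, Egr1, Cd69 and Irf4 lie left of 0 in the members and right of 0 in T cells without Foxp3, and Cd74 and Ccl22 show values that rest on which barcodes are counted.

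Metabolic lists had medians near that of all genes between the genotypes, apart from the lipid list when mixed barcodes were included. Glycolysis had a median of -0.04 with none of 17 past 2-fold, and fructose and polyol handling had -0.04 with none of 6. The nuclear respiratory chain subunits had a median of -0.00 and 1 of 52 lower, Ndufs5 at -1.26. Cell cycle genes had a median of -0.12 and 1 of 35 lower, Cenpe, a kinetochore motor gene, at -1.27. In clear members they had a median of -0.30 and 4 lower, Cenpe, Ccna2, Ccnb1 and Cks1b. The lipid and cholesterol list had a median of -0.37 on 14 genes with 1 lower, the desaturase gene Scd2, at -1.01 on 13 Glut5 KO and 8 WT UMIs. In clear members the lipid list had a median of 0.09 on 7 genes, with 0 higher and 0 lower. The median over all 8204 genes was -0.02.

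Among the extremes over all genes stood markers of other immune cells. Of the 12 genes highest in Glut5 KO members by the interval bound nearest 0, Mzb1, Cd79a, Ebf1, Bank1, Fcmr and Ms4a1 are B and plasma cell genes. Mzb1 had 294 UMIs in 14 Glut5 KO members and 0 in WT members, at least 30.6-fold higher, and Cd79a had 213 UMIs in 19 Glut5 KO members and 0 in WT members, at least 22.2-fold higher. In clear barcodes Mzb1 had 2 UMIs and Cd79a 0, which the limit on B and plasma cell UMIs in a clear barcode sets, as it does the sums below. The 5 B and plasma cell markers summed to 1386 CPM in Glut5 KO members and 14.1 in WT members, and to 24.4 and 21.2 CPM in clear barcodes. In T cells without Foxp3 they summed to 1569.6 CPM in the Glut5 KO library and 48.9 in the WT library. Ly6d, Eaf2, Dcstamp, Spp1 and Hist2h2bb were also among the 12, on 44 to 142 Glut5 KO UMIs and 0 to 3 WT UMIs. Ly6d, at 89.2 CPM in Glut5 KO members, and Eaf2, at 30.2 CPM, had 0 WT member UMIs, as the B and plasma cell genes did. Which cells these transcripts came from was not tested. In clear barcodes Spp1 had 46 and 2 UMIs. Ly6c2, a surface antigen of monocytes and activated T cells, had 614 CPM in Glut5 KO members and 205 in WT members, a log2 ratio of 1.57 (1.28 to 1.89), and 1.88 (1.05 to 2.97) in clear barcodes.

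Of the 12 lowest genes, Ccl17, Ccl22, Ccr7 and Cd209a are genes of migratory or inflammatory dendritic cells. Ccl22, the ligand of Ccr4 on regulatory T cells, had 34 UMIs in Glut5 KO members and 119 in WT members, of which 87 were in 1 WT barcode, and 0 in the clear barcodes of both, which leave out most dendritic cell UMIs by their definition. Ccr7 had 243 CPM in Glut5 KO members and 669 in WT members, a log2 ratio of -1.46 (-1.68 to -1.25), and -0.56 (-1.02 to -0.07) in clear barcodes. The 7 dendritic cell markers, Ccr7 among them, summed to 432 CPM in Glut5 KO members and 1101 in WT members, and to 210 and 302 in clear barcodes. Nearly all of the clear sums was Ccr7, with 202 CPM in clear Glut5 KO members and 296 in clear WT members. Ccr7 is also in the homing list and is not a gene of the criteria for mixed barcodes. Pdlim4, Pwp2, Cep85, Nudt17, Dgat2, Cxcl2 and Acod1 stood at -2.14 or lower on 14 to 33 WT UMIs each.

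In clear barcodes other genes led the ordering by the bound nearest 0. Ccl5, a chemokine of effector T cells, had 697 UMIs in clear Glut5 KO members and 41 in clear WT members, a log2 ratio of 2.37 (1.93 to 2.88), beside 0.47 in all members and -0.35 in clear T cells without Foxp3. Lgals3 had 2.09 and Ifitm3 1.60 in clear barcodes, and -0.10 and 0.03 in all members. The MHC class II genes H2-Aa, H2-Eb1, Cd74 and H2-Ab1 were among the 10 highest, within the limit that defines a clear barcode, and Cd74 had 774 CPM in clear Glut5 KO members and 196 in clear WT members. At the low end stood Kif11, Nfkbiz, Ifng, Egr1 and Cd69. The phagocyte markers summed to 2058 CPM in clear Glut5 KO members and 3361 in clear WT members, and their part in these differences was not tested.

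The members also varied among themselves by their Foxp3 count. Members with 2 or more Foxp3 UMIs had 400 CPM of Il2ra in the Glut5 KO library and those with 1 had 292, and in the WT library 544 and 198 CPM. Ctla4 had the opposite order in the Glut5 KO library, with 905 CPM at 2 or more Foxp3 UMIs and 1148 at 1, and was level in the WT library, at 733 and 732. Ikzf2 had 522 CPM at 2 or more Foxp3 UMIs and 631 at 1 in the Glut5 KO library, and 470 and 517 in the WT library, with overlapping counting intervals. Members with 2 or more Foxp3 UMIs were also deeper, with medians of 11878 UMIs against 5738 in the Glut5 KO library and 11790 against 3902 in the WT library. Clear members held more of the markers per UMI than mixed ones. Ikzf2 had 785 CPM in clear and 386 in mixed Glut5 KO members, and 630 and 390 in the WT library, and Tnfrsf4 had 2055 and 1159 CPM in the Glut5 KO library and 1720 and 1488 in the WT library.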

How the data were processed

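The deposited files held, per library, a matrix of UMI counts with its genes and barcodes; the labels' protocols name a 10x Genomics 5' kit. Counts were made with cellranger 7.0.1 per the file headers, while the submitters' processing notes name Cell Ranger 3.1.0 and the mm10 build. Each library is 1 sample. The members and gene lists were chosen with earlier results of these data known. Counts were summed per library over members and over T cells without Foxp3 and scaled to CPM. Log2 ratios used 0.5 added to each count and conditional exact binomial intervals, levels exact Poisson intervals, and shares Clopper-Pearson intervals, all at 95% and for counting error only, since cells differ beyond it. A gene was measured with at least 20 UMIs and past the threshold at 2-fold. To compare shares of cells with a UMI, cells were thinned to 1000 UMIs, which left out 3 Glut5 KO and 2 WT members, 52 and 6 T cells without Foxp3, and 680 and 206 phagocytes.

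Named genes were Slc2a5 and the 4 markers, the 4 highest and 3 lowest measured members of a list, the 15 highest and 12 lowest genes against T cells without Foxp3 by the weaker library, and the 12 highest and 12 lowest between genotypes by the bound nearest 0. The last 2 orderings left out mitochondrial, ribosomal, sex-linked, haemoglobin, immunoglobulin, T cell receptor variable and predicted genes. Nfkbiz, Ccl5, Lgals3, Ifitm3, Kif11, the MHC class II genes, Mki67 and the genes counted only in clear barcodes were named after their values were seen, or as list members. A few genes of the lists are not reported here. No doublets were removed; Scrublet (scanpy 1.11.5) set no usable threshold by itself, so the top 8% of scores was tried as an alternative. The ratios were tried on simulated counts with Poisson error alone, the kind of error that the intervals assume. Such counts hold no spread between cells, so they cannot show how that spread affects the ratios. The thinning was checked on WT members of these data, for the fixed total of UMIs per cell. Python 3.11.15, numpy 2.4.6, scipy 1.17.1 and pandas 2.3.3 were used.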

Additional observations from a re-analysis of the deposited data

Results flagged for a closer look

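The following genes had log2 ratios of regulatory T cells over T cells without Foxp3 on opposite sides of 0 in the Glut5 KO and WT libraries, with counting intervals that exclude 0 on both sides. With 1 library per genotype the difference was not tested.

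Genes of activation and NF-kappaB were below T cells without Foxp3 in the Glut5 KO library and above them in the WT library. Nfkbia stood at -0.17 and 1.42, Nfkbiz at -0.68 and 1.49, Egr1 at -1.18 and 0.66, Rel at -0.36 and 0.45, and Cd83 at -0.16 and 0.42. In clear barcodes Nfkbia stood at -0.10 and 1.76, Nfkbiz at -0.85 and 2.09 and Egr1 at -1.57 and 1.81, while Rel stood at -0.58 and -0.29 and Cd83 at 0.52 and 0.43. The regulatory T cell receptors Nrp1, at -0.97 and 0.97, and Adora2a, at -0.64 and 0.65, had the same order, as did Ccr6 at -0.58 and 1.75.

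The dendritic cell and inflammatory genes Ccl17, at -2.70 and 1.48, Ccl22, at -1.67 and 2.16, Ccr7, at -0.95 and 0.90, Cxcl2, at -2.52 and 2.05, and Acod1, at -1.90 and 0.88, were also lower in the Glut5 KO library and higher in the WT library. In the WT members 1 barcode held 87 of 119 Ccl22 UMIs, 23 of 47 Ccl17 UMIs and 22 of 28 Cxcl2 UMIs. Nudt17 stood at -0.81 and 1.26.

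Irf7, at 0.19 and -0.62, S100a6, at 0.22 and -0.27, and S1pr4, at 0.76 and -1.22, had the opposite order, higher in the Glut5 KO library and lower in the WT library.

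Outside the members, 36 of 279 CD8 T barcodes in the Glut5 KO library (12.9%) and 16 of 170 in the WT library (9.41%) held a Foxp3 UMI, beside 0.728% and 0.663% of phagocytes. These barcodes are in no comparison of the members.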

How the results depend on the processing

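No paired analysis was possible because each genotype has 1 library. The ratio of Glut5 KO over WT shares was 2.31 of T cells and 7.77 of all barcodes in Xist cells alone, which left 28 Glut5 KO and 3 WT members, too few for genes. Thinned to 1000 UMIs before the rule, it was 1.87 of T cells. The counts of genes past 2-fold moved with several choices. Against T cells without Foxp3, where the members had 95 higher and 201 lower, there were 36 and 56 with a Cd4 UMI required, 51 and 123 in Y cells alone, 55 and 109 at 50 UMIs, and 369 and 396 at 1 UMI. The lower count was 65 when thinned and 361 with each cell counted equally. Between genotypes, where 448 were higher and 245 lower in Glut5 KO, there were 33 and 12 when thinned, 837 and 639 with each cell counted equally, 156 and 65 at 50 UMIs, and 1364 and 1601 at 1 UMI. Gene lists whose medians against T cells without Foxp3 were past 0.5 in both libraries numbered 5 without mixed barcodes and 3 with all. The thinned share of members with Ikzf2 had a ratio of 2.42, and 1.13 without thinning. Gzmc in Glut5 KO members stood at 0.17 with a Cd4 UMI required, where all members gave -2.89. The cause of these changes was not tested. Nfkbia between genotypes lay between -1.60 and -1.09 under 12 alternatives, and at -0.54 with no limit on phagocyte UMIs. The limits of 50 UMIs and 1 UMI are among the 12 and cannot change its value, since they only set which genes are measured. Depth limits Slc2a5 in the members to 1.89 CPM (Glut5 KO) and 6.04 CPM (WT).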
